A study of Homo sapiens with 12 samples.

Results

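Lysine methyltransferases add methyl groups to histones and other proteins, and lysine demethylases remove them. The genes described here were those in the RNA tables whose symbol is KDM or KMT with a number and a letter, SETD with a number and at most the letter A or B, or SMYD with a number, leaving out the 3 such genes on chromosomes X and Y. This gave 37 of 58083 genes. The cells were HEK 293T, an established line from human embryonic kidney with the large T antigen of SV40. The study pulled down G-quadruplexes, DNA structures formed by runs of guanine, with a small molecule, and measured poly(A) RNA after 1 µM of a compound called PDP. The 8 RNA samples formed 4 groups of 2: DMSO for 3 h, PDP for 3 h, PDP for 24 h and PDP for 72 h, all in this line, grown in DMEM with serum. The 4 DNA samples were 2 of a pull-down from annealed genomic DNA and 2 of its input, from untreated cells of the line.

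As background, methyl marks on histone H3 lysine 4 (H3K4) accompany active promoters and enhancers, those on H3K36 accompany transcribed gene bodies, and those on H3K9, H3K27 and H4K20 accompany silent chromatin. SET domain enzymes place these marks. KDM1 enzymes remove some of these marks with FAD, and the JmjC enzymes (KDM2 to KDM7) remove some of them with iron, 2-oxoglutarate and oxygen.

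The files gave 1 pooled value per condition, in FPKM (fragments scaled for transcript length and library total), so the spread between replicates and the depth per library are unknown. "Called" means a q-value under 0.05 in the authors' deposited table, over all genes tested there. Log2 fold changes are PDP over control, and each SE was obtained by dividing the log2 fold change by the test statistic of the authors' deposited table. That SE and the deposited p-value need not measure the same spread: SETD2 was called at 24 h with a log2 fold change of -0.57 and an SE of 0.36. SETD2 was not the only such gene: KMT2E was called at 72 h with 0.84 and an SE of 0.52. The labels do not say whether replicates were separate cultures. A single control served all 3 comparisons, the DMSO cells of 3 h, scaled by 1.04 and 0.968 in the later tables, so the later comparisons also hold any change over time in culture and are not independent of each other. Scaling both conditions to equal FPKM sums would add 0.05, 0.17 and -0.10 to every log2 fold change at 3 h, 24 h and 72 h. Neurofilament genes, which HEK 293T cells are known to express, were present (NEFL 23.1 and NEFM 39.1 FPKM in the control), and the leukocyte gene PTPRC was at 0.00705 FPKM. With PDP for 72 h the 3 epithelial markers KRT8, KRT18 and EPCAM summed to 113 FPKM against 54.6 in the control, each with a higher value. The sum of the 3 fibroblast markers was 24.6 against 13.9 FPKM, and COL1A1 carried this rise. COL3A1 stayed near its control (1.083 against 1.108 FPKM) and DCN under 1 FPKM. The sum of the 4 lineage markers was 264 against 68.0 FPKM, most of it from NEFL and NEFM. PAX2 and LHX1, the other lineage markers, also had higher values. The part of these marker changes in the results below was not tested.

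The sequences before the starts of 4 members are shown: SETD5, SETD7 and KDM5B as the members found with a G-quadruplex motif there and called at both 24 h and 72 h, and SMYD5 for a pull-down peak at its start. KMT5B, SMYD3 and KDM2A also held the motif before at least 1 start and were called at 1 of these times. Each is the 250 bases before a RefSeq transcript start (GRCh38.p14), written along the gene's strand, and capitals mark the motif: 4 runs of at least 3 G with 1 to 7 bases between them, searched on both strands.
SETD5 (chr3:9397365-9397614, plus strand): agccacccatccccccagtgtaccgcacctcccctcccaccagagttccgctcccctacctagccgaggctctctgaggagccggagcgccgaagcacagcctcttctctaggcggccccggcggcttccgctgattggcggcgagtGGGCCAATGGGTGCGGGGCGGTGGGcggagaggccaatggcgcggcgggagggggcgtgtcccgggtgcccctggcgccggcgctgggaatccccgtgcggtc
SETD7 (chr4:139556220-139556469, minus strand): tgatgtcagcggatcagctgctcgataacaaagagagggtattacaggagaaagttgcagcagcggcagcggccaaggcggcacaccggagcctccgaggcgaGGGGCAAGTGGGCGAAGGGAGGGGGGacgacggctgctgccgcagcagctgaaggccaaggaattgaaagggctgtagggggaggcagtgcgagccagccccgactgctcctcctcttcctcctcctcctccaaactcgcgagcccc
KDM5B (chr1:202808422-202808671, minus strand): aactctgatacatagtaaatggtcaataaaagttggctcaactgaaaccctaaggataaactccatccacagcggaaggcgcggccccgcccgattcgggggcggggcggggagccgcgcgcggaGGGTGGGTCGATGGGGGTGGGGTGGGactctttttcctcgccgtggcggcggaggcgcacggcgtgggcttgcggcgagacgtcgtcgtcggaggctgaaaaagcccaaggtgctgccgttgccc
SMYD5 (chr2:73213995-73214244, plus strand): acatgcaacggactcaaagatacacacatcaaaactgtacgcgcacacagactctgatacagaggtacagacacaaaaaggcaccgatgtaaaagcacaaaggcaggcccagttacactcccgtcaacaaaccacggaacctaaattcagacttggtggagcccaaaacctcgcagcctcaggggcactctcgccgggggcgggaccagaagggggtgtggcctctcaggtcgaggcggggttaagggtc
At both later times SETD5 and KDM5B rose and SETD7 fell, so the motif stood before genes of either direction. SMYD5 held no match in this window. Of 35 members with a RefSeq start, 17 (48.6%) had the motif before at least 1 start, against 40.8% of 9115 autosomal genes with a control FPKM of at least 1 and 26.3% of all 27305 genes in the RefSeq table. By call at 72 h, 3 of 8 members called higher had it, 2 of the 4 with a RefSeq start called lower, and 12 of 22 not called.

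In the control, 35 of the 37 genes were measured at 1 FPKM or more. SMYD1, which is known from heart and skeletal muscle, and KDM4E were listed at 0 in the control and not tested. KDM1A, the FAD-dependent H3K4 demethylase of the CoREST complex, was highest at 95.1 FPKM, and KDM4D was lowest of those measured at 2.33 FPKM. The median was 16.2 FPKM, against 13.0 over the 13455 genes of at least 1 FPKM. SETD6, KMT5A, KMT2D, SETD5 and KDM2A followed KDM1A, between 33.8 and 39.2 FPKM. Without replicate values, neighbours in this order cannot be told apart.

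**Figure D1:**
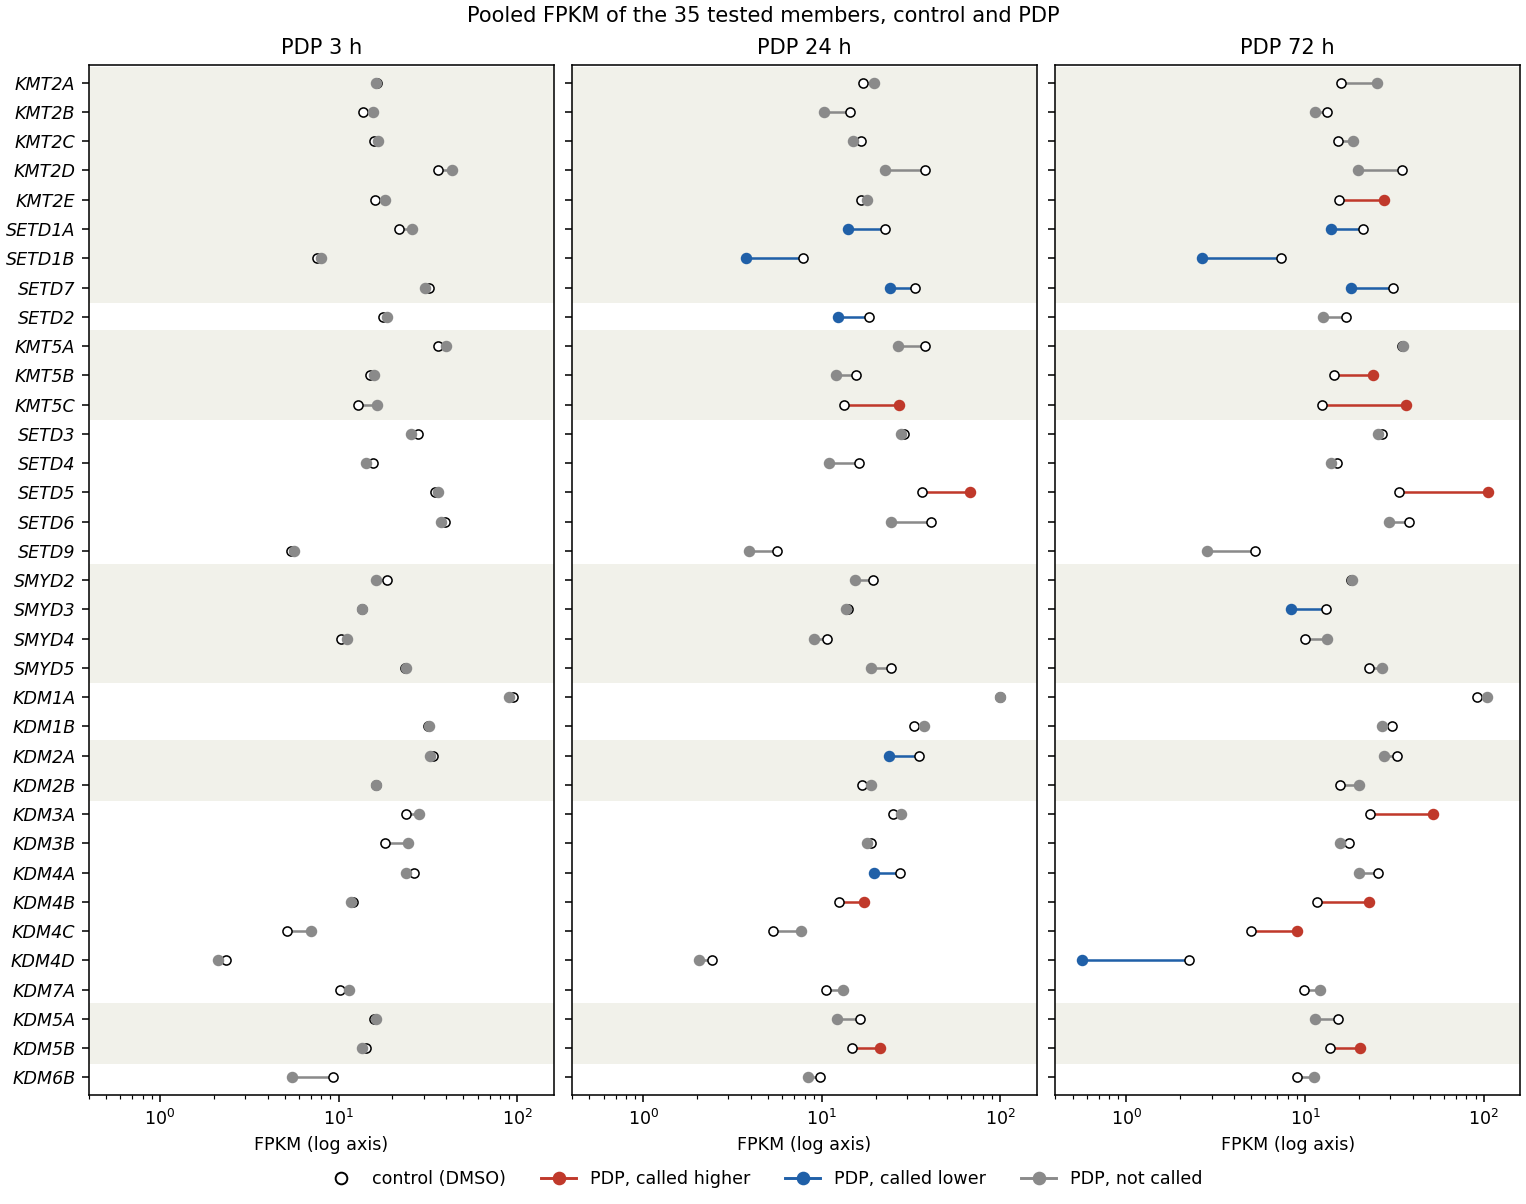
Pooled FPKM on a log axis for the 35 tested members, with control (open circles) and PDP (filled circles) joined by a line and 1 panel per time point; colour gives the call in the authors' deposited table and shaded bands separate roles. Control and PDP lie close together at 3 h, and SETD5 reaches 106 FPKM and KDM4D falls to 0.567 FPKM at 72 h.

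At 3 h no member was called in the authors' deposited table, where 0.108% of 14751 tested genes were called higher and 0.00678% lower (0.115% in all). Log2 fold changes ran from -0.77 for KDM6B, an H3K27 demethylase (9.36 to 5.49 FPKM, SE 1.58), to 0.44 for KDM4C (SE 0.43). The median over the 35 members was 0.04, against -0.01 over all genes with the same control minimum. KDM3B, an H3K9 demethylase, was the 1 member with an unadjusted p under 0.05 in the authors' deposited table (18.2 to 24.5 FPKM, log2 fold change 0.43, SE 0.33), against 282 of all tested genes. EHMT1, an H3K9 methyltransferase outside the naming rule, was called higher at 3 h (30.3 to 1137 FPKM, q = 0.0434 in the authors' deposited table). It was near its control and not called at 24 h (28.7 against 31.4 FPKM) and 72 h (27.6 against 29.3 FPKM). The 3 h value is pooled, so whether both replicates carried it is unknown.

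At 24 h 4 members were called higher (11.4% of 35, against 9.21% of all 15385 tested genes) and 6 lower (17.1%, against 8.29%). The higher share was near that of all genes. The lower share exceeded it, and against the 9.46% of genes with a control of at least 1 FPKM it did so too, but members were chosen with earlier results known and this difference was not tested. The median log2 fold change was -0.24, against -0.06 over all genes with that minimum, a difference of -0.18. Equal FPKM sums move both medians by the same amount (that of members to -0.07) and leave the difference as it is. At 72 h 8 members were called higher (22.9%, against 19% of 15423 tested genes) and 5 lower (14.3%, against 12.8%), both near the share over all genes. In either direction 31.8% of all tested genes were called at 72 h. The median was 0.02, against 0.06 over all genes. The genes as a family thus spread at 72 h much as all genes did, and the differences lay between individual members.

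**Figure D2:**
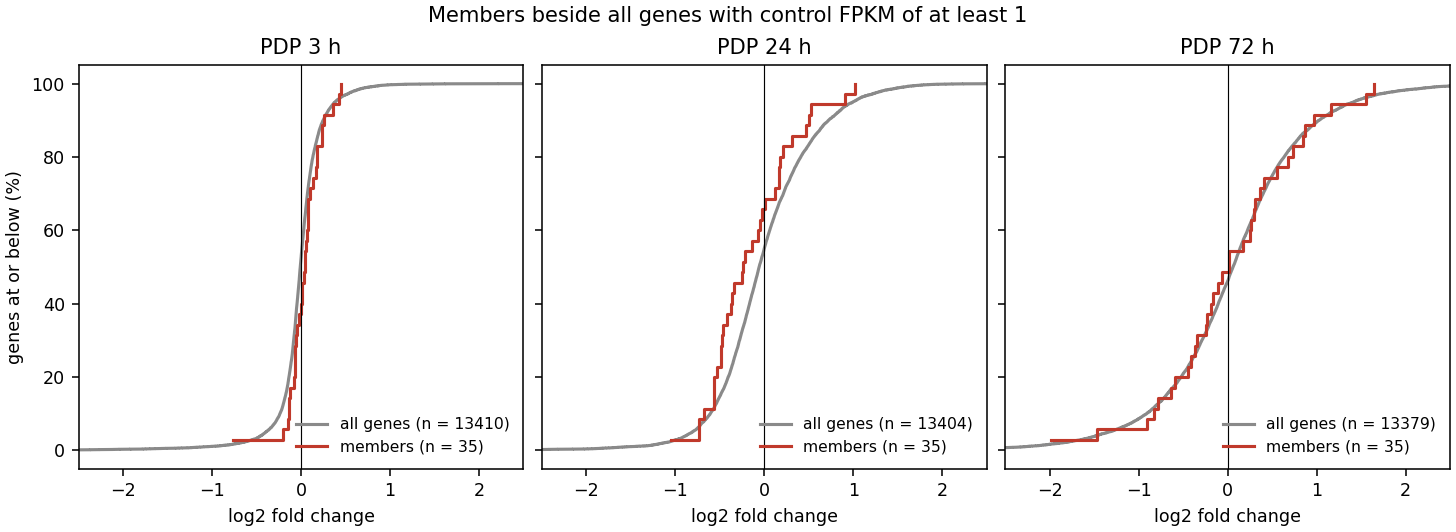
Cumulative share of genes by log2 fold change for the 35 members (red) and all genes with control FPKM of at least 1 (grey), 1 panel per time point. The red step lies left of the grey line over most of its range at 24 h (medians -0.24 and -0.06) and near it at 72 h (0.02 and 0.06).

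Among the enzymes that place H3K4 methyl marks and their relatives, the SET1 pair fell while most KMT2 genes were not called. Of these 8 genes, 3 fell and none rose at 24 h, where 8.29% of all tested genes were lower and 9.21% higher, and 3 fell and 1 rose at 72 h, against 12.8% and 19%. Their median log2 fold changes were -0.47 and -0.41, against -0.06 and 0.06 over all genes. SETD1B (ENSG00000139718.10, chromosome 12, 121804180 to 121832584, GRCh38.p7), the catalytic subunit of a COMPASS complex, fell at 24 h from 7.85 to 3.78 FPKM (by log2, -1.05, SE 0.21) and at 72 h from 7.34 to 2.66 FPKM (-1.47, SE 0.22). Its paralog SETD1A fell from 22.6 to 14.1 FPKM at 24 h (-0.68, SE 0.21) and from 21.1 to 13.99 FPKM at 72 h (-0.59, SE 0.22). The authors' deposited table gave both genes the smallest p-value it holds, 5e-05, at both times (q = 0.000908 at 24 h and 0.000393 at 72 h).

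SETD7, which monomethylates H3K4 and many other proteins, also fell, from 33.4 to 24.2 FPKM at 24 h (-0.46, SE 0.21) and from 31.1 to 18.1 FPKM at 72 h (-0.78, SE 0.23). KMT2E, a relative of the MLL enzymes that binds H3K4 marks through its PHD finger, rose at 72 h from 15.4 to 27.6 FPKM (0.84, SE 0.52). Its deposited locus also holds SRPK2, which was called higher at 72 h as well (21.6 to 34.4 FPKM), and the antisense gene KMT2E-AS1 (0.748 to 2.93 FPKM, not called). The MLL enzyme genes KMT2A, KMT2B, KMT2C and KMT2D were called at no time. KMT2D, which acts at enhancers, had 22.6 against 37.6 FPKM at 24 h (-0.73, SE 0.60) and 19.7 against 35.1 FPKM at 72 h (-0.83, SE 0.67), while KMT2A, whose fusions drive leukaemia, had 25.4 against 15.9 FPKM at 72 h (0.68, SE 0.86). KMT2C, the enhancer enzyme paralogous to KMT2D, had 18.4 against 15.3 FPKM at 72 h (0.26, SE 0.48), and KMT2B had 10.3 against 14.3 FPKM at 24 h (-0.47, SE 0.37) and 11.4 against 13.3 FPKM at 72 h.

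SETD2, which trimethylates H3K36, fell at 24 h from 18.3 to 12.3 FPKM, and was not called at 72 h (12.5 against 17.05 FPKM, -0.44, SE 0.48).

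**Figure D3:**
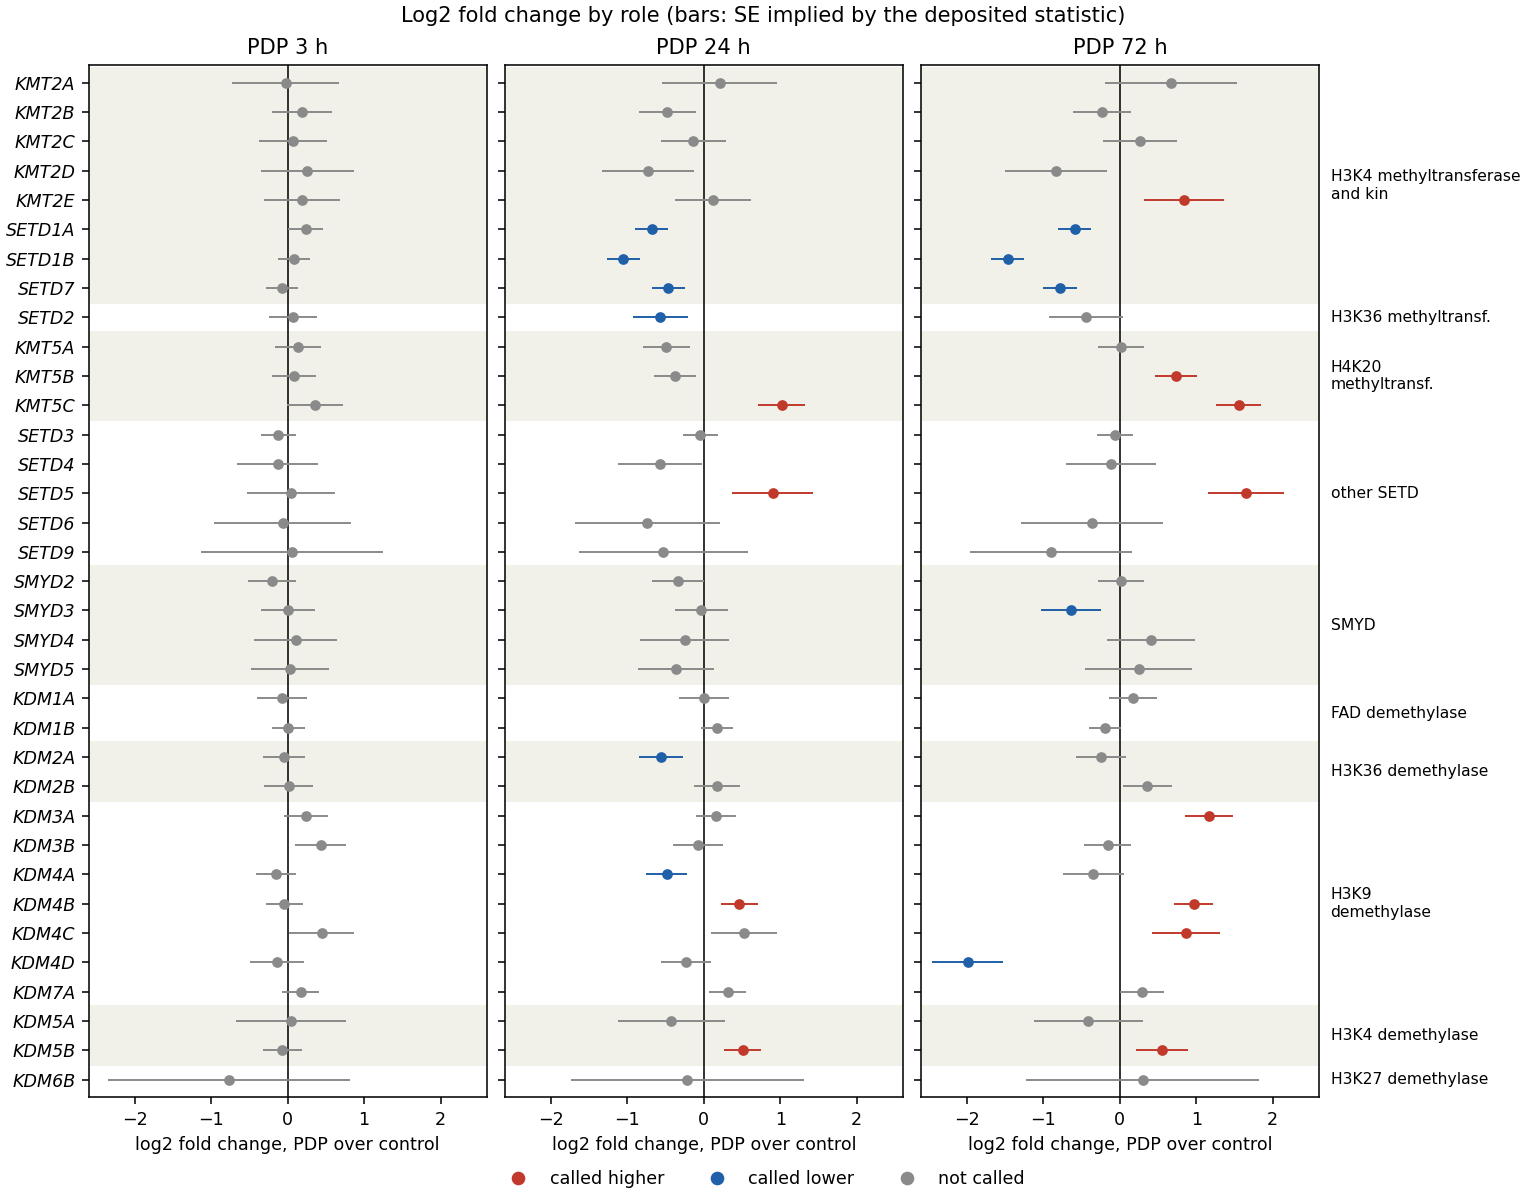
Log2 fold change of PDP over control for the 35 tested members grouped by role, with bars for the implied SE and colour for the call in the authors' deposited table. SETD1A, SETD1B and SETD7 lie left of 0 at 24 h and 72 h, KMT5C and SETD5 lie right of it, and no member is coloured at 3 h.

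Of the H4K20 enzymes, KMT5C showed the largest change. KMT5C (ENSG00000133247.13, chromosome 19, 55339853 to 55348120), which with KMT5B makes the di- and trimethyl marks, had 16.5 against 12.9 FPKM at 3 h without a call. It rose from 13.35 to 27.05 FPKM at 24 h (a log2 change of 1.019, SE 0.30) and from 12.5 to 36.6 FPKM at 72 h (1.55, SE 0.29). KMT5B had 12.0 against 15.5 FPKM at 24 h, without a call, and rose at 72 h from 14.5 to 24.1 FPKM (0.74, SE 0.28). KMT5A, which places the first methyl group, had 26.8 against 37.6 FPKM at 24 h (-0.49, SE 0.31, q = 0.0528 in the authors' deposited table) and 35.5 against 35.1 FPKM at 72 h. The 3 enzymes of this mark thus had unlike values at 72 h, the monomethyltransferase near its control and the other two above it.

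SETD5 (ENSG00000168137.15, chromosome 3, 8980591 to 9479240), a chromatin regulator linked to neurodevelopmental disorders, had the largest rise of all members at 72 h. It stood at 35.95 against 34.8 FPKM after 3 h, rose from 36.2 to 67.7 FPKM at 24 h (0.90, SE 0.53) and from 33.7 to 106 FPKM at 72 h (1.65, SE 0.50). The deposited locus spans 10 genes, among them THUMPD3, SRGAP3 and THUMPD3-AS1, and none of these 3 was called. THUMPD3 had 27.2 against 41.2 FPKM at 72 h, and THUMPD3-AS1 47.1 against 31.4 FPKM. SETD3, SETD4, SETD6 and SETD9 were called at no time. SETD3, the actin histidine methyltransferase, lay between -0.12 and -0.05 at all times, and SETD6, which methylates the NF-kB subunit RelA, had 24.4 against 40.7 FPKM at 24 h (-0.74, SE 0.95). SETD4 had 10.95 against 16.2 FPKM at 24 h (-0.57, SE 0.55) and 13.99 against 15.1 FPKM at 72 h.

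In the SMYD genes, whose SET domain is split by a MYND zinc finger, SMYD3 fell at 72 h from 13.1 to 8.37 FPKM (a log2 change of -0.64, SE 0.39). At 3 h and 24 h it was within 0.03 of its control on the log2 scale. SMYD2, SMYD4 and SMYD5 were called at no time, with log2 fold changes between -0.36 and 0.40. SMYD5 had 18.9 against 24.3 FPKM at 24 h and 26.9 against 22.7 FPKM at 72 h, with SEs of 0.49 and 0.70.

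Of 7 tested H3K9 demethylases, 1 rose and 1 fell at 24 h (14.3% each way, against 9.21% and 8.29% of all tested genes). At 72 h 3 rose (42.9%, against 19%) and 1 fell (14.3%, near the 12.8% of all genes). KDM3A (ENSG00000115548.16, chromosome 2, 86440647 to 86492716), a known target gene of the hypoxia factor HIF-1, had 27.8 against 24.9 FPKM at 24 h, without a call, and rose at 72 h from 23.2 to 51.9 FPKM (a log2 change of 1.16, SE 0.31). Its paralog KDM3B was not called at any time (15.8 against 17.6 FPKM at 72 h). KDM4B, another gene known to respond to low oxygen, rose from 12.5 to 17.2 FPKM at 24 h (0.47, SE 0.24) and from 11.6 to 22.8 FPKM at 72 h (0.97, SE 0.25).

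KDM4C rose at 72 h from 4.98 to 9.06 FPKM (a log2 change of 0.86, SE 0.44) after 7.69 against 5.34 FPKM at 24 h. KDM4A, which like KDM4B and KDM4C also acts on H3K36, fell at 24 h from 27.5 to 19.6 FPKM (-0.49, SE 0.27) and had 20.1 against 25.6 FPKM at 72 h, without a call. KDM4D (ENSG00000186280.6, chromosome 11, 94973681 to 94999518), which acts on H3K9 alone, had 2.05 against 2.42 FPKM at 24 h and fell at 72 h from 2.25 to 0.567 FPKM (-1.99, SE 0.47), the largest fall of any member. KDM7A was called at no time (12.1 against 9.88 FPKM at 72 h). In the KDM4 family the 72 h table thus called 2 genes higher, 1 lower and 1 not at all, with KDM4E untested.

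Of the other demethylases, KDM5B, which removes H3K4 marks, rose from 14.8 to 21.1 FPKM at 24 h (a log2 change of 0.51, SE 0.24) and from 13.8 to 20.3 FPKM at 72 h (0.55, SE 0.34). KDM5A had 12.2 against 16.3 and 11.4 against 15.2 FPKM, neither called (SE 0.70 and 0.71). KDM2A, an H3K36 demethylase that binds CpG islands, fell at 24 h from 35.1 to 23.8 FPKM (-0.56, SE 0.29) and had 27.6 against 32.8 FPKM at 72 h without a call. Its paralog KDM2B had 18.8 against 16.8 and 20.1 against 15.6 FPKM. KDM1A was close to its control throughout, at 98.9 against 98.8 FPKM at 24 h and 104 against 92.1 FPKM at 72 h (0.17, SE 0.32). KDM6B, which removes H3K27 marks, had 8.37 against 9.71 FPKM at 24 h and 11.2 against 9.06 FPKM at 72 h, with SEs of 1.52 at both times. KDM1B, the other FAD enzyme, had 37.1 against 32.9 and 26.9 against 30.7 FPKM.

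Partner and related genes were taken from 5 further lists. For each list and role, counts read against the shares of all tested genes, 9.21% higher and 8.29% lower at 24 h and 19% and 12.8% at 72 h. Over genes with a control of at least 1 FPKM, as nearly all listed genes had, these shares were 8.33% and 9.46% at 24 h. At 72 h they were 18.7% and 14.5%. No list was tested against other genes. Of 13 tested COMPASS partner subunits, none was called higher at either later time and 3 (23.1%) were called lower at each. The list's medians were -0.25 and -0.36, against -0.06 and 0.06 over all genes. WDR82, a subunit of the SETD1A and SETD1B complexes, fell from 75.4 to 44.7 FPKM at 24 h (a log2 change of -0.75, SE 0.20). At 72 h it fell from 70.3 to 36.4 FPKM (-0.95, SE 0.21). CXXC1, another subunit of these complexes, was called at neither time. It had 28.3 against 37.7 FPKM at 24 h (-0.42, SE 0.36) and 40.7 against 35.2 FPKM at 72 h (0.21, SE 0.32). WDR5 fell from 57.1 to 36.6 FPKM at 72 h (-0.64, SE 0.21) and RBBP5 from 19.4 to 13.6 FPKM (-0.51, SE 0.25), and both serve all complexes of the family. At 24 h all 13 had a value below 0, and 10 with equal FPKM sums. Of 13404 genes with a control of at least 1 FPKM, 7392 were below 0 as deposited and 5335 with equal sums. At 72 h 7 of the 13 had a value below 0 and 6 above it, and 10 were below with equal sums. Of 13379 such genes, 6179 were below 0 as deposited and 7070 with equal sums.

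PRC2 genes serve H3K27 methylation, and the methyltransferases EZH1 and EZH2 were not in this list but among the other lysine methyltransferases below. Of the 11 genes in it, 2 fell (18.2%, against 8.29% of all tested genes) and none rose at 24 h. At 72 h 4 of them fell (36.4%, against 12.8%) and 2 rose (18.2%, near the 19% of all genes). EZH1 was called higher at 24 h (12.3 to 22.1 FPKM) and at 72 h, and EZH2 at neither time. JARID2 was in this list and in that of other JmjC genes. SUZ12, a core subunit, fell from 38.2 to 27.6 FPKM at 24 h (-0.47, SE 0.20) and from 35.5 to 24.6 FPKM at 72 h, and PHF19 rose at 72 h from 9.90 to 18.8 FPKM. Among 19 partners in the LSD1-CoREST and NuRD complexes, 3 rose (15.8%, against 9.21%) and 2 fell (10.5%, against 8.29%) at 24 h. At 72 h 8 rose (42.1%, against 19%) and 2 fell (10.5%, near 12.8%), with a median of 0.48 against 0.06 over all genes. PHF21A rose from 4.76 to 23.3 FPKM at 72 h and RCOR2 from 2.32 to 10.8 FPKM, while the NuRD subunit MBD3 fell from 50.9 to 20.6 FPKM. KDM1A, their demethylase, was not called.

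Of 20 other lysine methyltransferase genes tested, 2 rose (10%, near the 9.21% of all genes) and 4 fell (20%, against 8.29%) at 24 h. At 72 h 5 rose (25%, against 19%) and 2 fell (10%, near 12.8%). EZH1, an H3K27 methyltransferase, rose from 11.5 to 42.0 FPKM at 72 h (a log2 change of 1.87, SE 0.43), and SETMAR fell from 7.20 to 2.11 FPKM (-1.77, SE 0.48). Of 13 other JmjC genes tested, 1 was called lower at 24 h (7.69%, near the 8.29% of all genes) and 4 at 72 h (30.8%, against 12.8%), with none higher, where 9.21% and 19% of all genes were. KDM8, which the naming rule leaves out, fell from 5.87 to 1.998 FPKM at 24 h (-1.55, SE 0.52) and from 5.48 to 1.01 FPKM at 72 h (-2.44, SE 0.87). JMJD4 fell from 27.02 to 11.4 FPKM at 72 h.

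The pull-down list held 51446 peaks merged from both replicates. Of the 37 loci, 25 (67.6%) held the centre of at least 1 peak, with 101 peaks in all. The share was 56.1% over 9843 autosomal loci with a gene of at least 1 FPKM, which were shorter (median 47.9 against 85.0 kb). It was 74.7% over the 3465 of these with a length between the lower and upper quartile of member loci. Member loci held 19.3 peaks per megabase (95% exact Poisson interval 15.8 to 23.5), against 19.4 (19.2 to 19.7) over the 9843. These intervals cover counting error only. The deposited locus of KMT2E held 13 peaks and that of KMT2C 12, and those of KDM4A, KDM4C and SETD5 held 9 each. These loci list 5 to 10 genes, so a peak counted there need not lie in the named gene. Loci can span neighbouring genes, and a longer locus holds more peaks. SMYD3, the longest locus at 758 kb, held 1 peak, and KDM1A held none in 158 kb.

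Per length, KMT5C was densest, with 1 peak in 8.27 kb, followed by SMYD5, SETD4, KMT2B and SETD7. The highest score among the 101 was 41.5, in the KDM4A locus, where the list's median is 10.96. That peak is centred 254616 bases from the RefSeq start of KDM4A. By call at 72 h, loci of members called higher held 23.1 peaks per megabase (16.5 to 31.4), those called lower 6.28 (2.31 to 13.7) and those not called 21.7 (16.3 to 28.3). The value for members called lower rests on 6 peaks in 5 loci and on 1 locus: without SMYD3, which makes up most of the length, it was 25.4 (8.25 to 59.3), with all 5 remaining peaks in SETD7. That alternative was chosen after seeing the data.

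**Figure D4:**
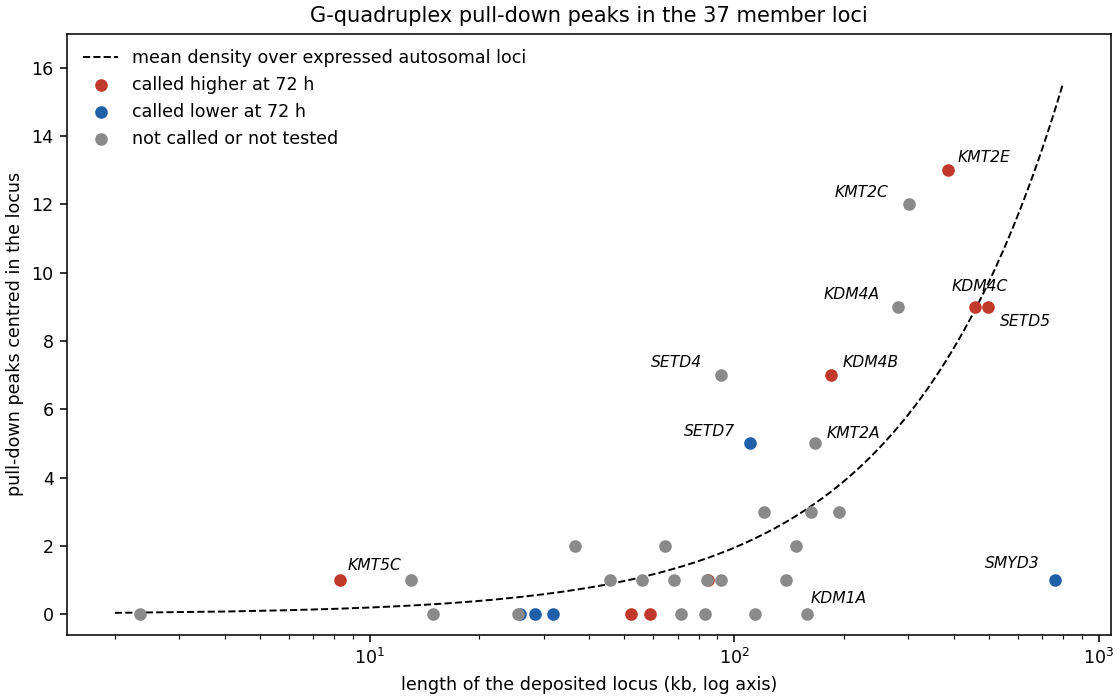
Number of pull-down peaks centred in each of the 37 deposited loci against locus length (kb, log axis), coloured by the call at 72 h; the dashed line is the mean density over expressed autosomal loci. Longer loci tend to hold more peaks, with KMT2E (13) and KMT2C (12) above the line and SMYD3 (1) and KDM1A (0) below.

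A peak centre lay within 1000 bases of either end of the locus for 5 members (KDM4C, KDM4D, KDM5B, KMT2A and SMYD5), which is 13.5% against 5.6% of the 9843 loci. The excess depends on the window: within 500 bases it was 1 member (2.7%) against 2.05% of loci, and within 2000 bases 8 members (21.6%) against 13.7%. The end peaks of KDM4C, KDM4D, KDM5B and KMT2A were centred 40585, 26361, 84599 and 167123 bases from the nearest RefSeq start of the gene. Counting any peak in the list, the nearest centre was 4263 to 26361 bases from a start of these genes. SMYD5, whose expression was not called at any time, was the member with a peak at its start: the peak at chr2:73213806-73214208 (score 17.6) lies just outside the deposited locus, is centred 238 bases from the start and overlaps the sequence shown above. That is 1 of 35 members (2.86%), against 3.28% of the 9115 genes.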

How the data were processed

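Gene expression was measured in 8 poly(A) RNA samples and G-quadruplex pull-down in 4 DNA samples. Per the submitters' processing notes the tools were Trim Galore 0.4.4, HISAT2 2.0.5, Cufflinks 2.2.1, Bowtie2 2.2.9, SAMtools 1.3.1, Picard and HOMER 4.9.1, with GRCh38.p7; settings, and whether counting used strand, are not given in the sources used here. The authors' deposited FPKM are pooled over replicates. For each gene the tables hold a p-value and a q-value that the authors deposited for PDP against control, and a test statistic, a score from which the SE was derived as log2 fold change over statistic. Peaks carry a score, per the authors' list, with no stated unit. Depth per library is unknown.

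Members and lists were chosen with earlier results of these data known. Log2 fold changes were computed from FPKM. Medians used genes with at least 1 FPKM in the control of the 3 h table. Locus starts, counted from 0 in the files, were raised by 1: 6212 of 24129 single-gene loci then matched a RefSeq start, against 337 as written. Peaks were assigned by their centre. Patch releases leave chromosome coordinates of GRCh38 unchanged, so RefSeq starts (GRCh38.p14) were set beside the peaks; SETD1B and KDM4E had no entry. Named were all called members, the 2 of highest level per role, the largest rise and fall per table, up to 3 called genes per list and time, and members with most peaks per length or a peak at a locus end. Other genes named, such as KMT2A, KDM7A, KMT2E-AS1 and neighbours in a locus, were chosen after their values were seen. Alternatives tried were a minimum log2 change of 1, a q of 0.01, other FPKM minimums, a pseudocount of 1, the mean, equal FPKM sums, members alone in their locus and other windows. Counting was tested on simulated data. Versions were pandas 2.3.3, NumPy 2.4.6, Matplotlib 3.10.9 and SciPy 1.17.1 under Python 3.11.15.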

Additional observations from a re-analysis of the deposited data

How the results depend on the processing

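No paired analysis was possible because the files hold 1 pooled value per condition, and for the same reason no replicate could be left out. Counts of called members were the same with a control minimum of 1 FPKM. With a q of 0.01 the 6 lower calls at 24 h became 2. With a log2 change of at least 1, higher and lower calls were 1 and 1 at 24 h, and 3 and 2 at 72 h. Among the 12 tested members alone in their locus they were 2 and 1 at 24 h, and 4 and 2 at 72 h, since fewer genes enter. For the q of 0.01, the log2 change of at least 1 and members alone in their locus, shares over all genes were not computed. These counts therefore cannot be read against all genes. The median log2 fold change of members became -0.0701 at 24 h and -0.0863 at 72 h with equal FPKM sums, and 0.13 at 72 h for members alone in their locus. Other settings moved the medians by less than 0.1. For single genes a pseudocount of 1 FPKM (added after seeing the data) cannot turn a direction and equal sums add 1 constant to all genes, so neither tests stability. Members with a peak near a locus end numbered 8 within 2000 bases, 1 within 500 and, in an alternative also added later, 1 within 1000 bases of a RefSeq start. Members whose locus holds other genes had a larger median implied SE (0.44 against 0.30 at 72 h).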

Other observations

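The members' loci held 29 other genes listed at 1 FPKM or more in at least 1 condition. At 3 h none of these was called by the authors' test, 1 was called lower at 24 h, and 2 were called higher and 1 lower at 72 h. MIER3, the expressed neighbour of SETD9, fell from 19.6 to 12.0 FPKM at 24 h (a log2 change of -0.71, SE 0.28) and from 18.3 to 9.46 FPKM at 72 h (-0.95, SE 0.32), while SETD9 itself had 2.81 against 5.25 FPKM at 72 h and was not called (-0.90, SE 1.06). TMEM25, in the locus of KMT2A, was called higher at 72 h (7.93 to 23.7 FPKM), though its log2 change of 1.58 was smaller than its SE of 1.63. KDM4A-AS1 had 2.10 against 0.888 FPKM at 72 h, where KDM4A had 20.1 against 25.6 FPKM, and neither was called. Whether the counting used strand is not stated, so reads of overlapping genes on opposite strands cannot be told apart.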
